A study of Sus scrofa with 12 samples.

Results

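OTX2, ZIC2, FGF5, SFRP2 and SOX3 are genes used to recognise the primed pluripotent state of the epiblast. They were found by gene symbol in a deposited table of 30012 loci, and all 5 were present. FGF5 was listed on a pair of loci, and the locus with the higher mean was used. The other one, on scaffold GL893204.2, was at 0 in every library. The study profiled 12 RNA-seq libraries of pig cells, 3 from each of 4 groups. The somatic control was fetal fibroblasts at passage 6, derived from a day 30 fetus. The embryonic stem cell (ESC) lines were parthenogenetic ESC-3 and parthenogenetic ESC-7, which carry no sperm genome, and IVF-derived ESC-11, from in vitro fertilisation (here ESC3, ESC7 and ESC11). Each group of ESC libraries is 1 line, and the IVF origin is represented by ESC11 alone, so origin and line cannot be told apart. The ESCs were grown on feeder cells in medium that held 20 ng/mL FGF2 and 5 ng/mL ActA together with 1.5 µM CH and 2.5 µM IWR-1, and were sorted for the surface antigen SSEA1 before RNA extraction. Around each passage they received Y-27632, a ROCK inhibitor, at 10 µM for 24 h before and 24 h after.

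The epiblast is the part of the embryo that gives rise to the body. Its cells pass from a naive state, before implantation, to a primed state in which they remain pluripotent but begin to express genes of later lineages. In mouse and human cells, FGF and activin signalling maintain the primed state. OTX2 is a homeodomain transcription factor that directs enhancers in the move from naive to primed cells and later patterns the forebrain. ZIC2 is a zinc-finger transcription factor of primed cells and of the neural plate. SOX3 is an X-linked transcription factor of the SOX group B family, which is closely related to SOX2. FGF5 is a secreted growth factor and a classical marker of the mouse epiblast after implantation. SFRP2 is a secreted protein that binds WNT ligands, and connective tissue cells also make it.

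Levels are in FPKM, which divides a gene's fragments by its length and by the library's total, so levels can be compared between genes. The median FPKM of the loci above 0 was 4.59 to 5.05 across libraries. The summed FPKM was 2375980 to 7715470 and was lowest in ESC11 library 3. Loci spanning under 300 bp held 54.8% to 80.6% of it. The number of reads is unknown. The 5 genes of the core pluripotency list, POU5F1, SOX2, NANOG, SALL4 and LIN28A, summed to an FPKM of 1694 to 1887 in the ESC libraries and at most 0.152 in the fibroblasts. A list of 13 fibroblast genes summed to 20102.5 to 20429 in the fibroblasts and to 94.5 to 140.5 in the ESC libraries, and none of its genes was at 0 in all of the ESC libraries.

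The first question is how the markers separate stem cells from a somatic cell. OTX2 and ZIC2 rose in ESCs, SFRP2 fell, and SOX3 and FGF5 were too low to enter the test. Loci were tested with limma on log2(FPKM + 1) if they reached an FPKM of 1 in at least 3 libraries, and 3 of the 5 markers did. A locus was called at an adjusted p (Benjamini-Hochberg, over all 18278 tested loci) under 0.05 and a log2 difference of at least 1. Of the tested markers, 2 were called higher and 1 lower in ESCs. Over all tested loci the share called was 43.1%, with 28.1% higher and 14.9% lower, so a call in this comparison is common.

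OTX2 (chromosome 1, 206642086 to 206651833, minus strand, on the Sscrofa10.2 build, as are all coordinates here) was listed at 0 in all 3 fibroblast libraries. In ESC3 its FPKM was 74.2, 71.0 and 71.4. ESC7 had 36.0, 39.2 and 40.1, and ESC11 had 63.1, 60.8 and 59.7. The 3 ESC lines did not overlap with each other or with the fibroblasts. How common such a separation is over all loci was not counted, here or for the markers below. The difference of the ESC mean from fibroblasts was 5.82 ± 0.04 on the log2(FPKM + 1) scale (SE, limma adjusted p = 1.23e-15). It was 3.60 with a pseudocount of 5 and 9.12 with 0.1. No fold is given, since the fibroblasts are listed at 0. OTX2 was the most abundant of the 5 markers in every library of ESC3 and ESC11, and its mean over the ESC libraries exceeded that of 91.0% of the 20920 Ensembl loci in the table.

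ZIC2 (chromosome 11, 76102479 to 76108001, plus strand) was at 0.106, 0.340 and 0.315 in the fibroblasts. The ESC3 libraries had 46.3, 47.7 and 45.5, those of ESC7 had 30.4, 36.6 and 34.7, and those of ESC11 had 39.4, 39.4 and 38.2. Every ESC library was above every fibroblast library, and the lines did not overlap with each other. ZIC2 rose by 5.02 ± 0.07 on the log2(FPKM + 1) scale (SE, limma adjusted p = 2.24e-13), and the ratio of the mean FPKM was 157. The difference was 3.08 with a pseudocount of 5 and 6.88 with 0.1. OTX2 and ZIC2 both passed the filter through their ESC libraries alone.

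SFRP2 (chromosome 8, 79741114 to 79751980, plus strand) had the opposite direction. The fibroblasts were at 94.7, 89.0 and 91.5. ESC3 had 42.0, 40.8 and 40.8, ESC7 had 31.7, 38.5 and 42.2, and ESC11 had 34.9, 36.1 and 35.5. The ESC libraries were all below the fibroblasts, while the ESC7 range took in those of both other lines. SFRP2 fell by 1.25 ± 0.07 on the log2(FPKM + 1) scale (SE, limma adjusted p = 1.4e-08), and the fibroblast mean was 2.41 times the ESC mean. Its ESC mean of 38.1 ± 3.67 (SD, n = 9) was close to that of ZIC2, 39.8 ± 5.74 (SD, n = 9). SFRP2 was thus a well expressed gene in both kinds of cell, above 86.2% of Ensembl loci in ESCs and 95.7% in fibroblasts.

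Fibroblast genes stood much lower relative to the fibroblasts than SFRP2 did. SFRP2 in ESCs was at 41.5% of its fibroblast level by these means, whereas COL1A1, a fibrillar collagen chain, was at 0.279%, COL3A1 at 0.00996%, DCN, a matrix proteoglycan, at 0.242%, and VIM, the mesenchymal filament protein, at 0.871%. TWIST2, a mesenchymal transcription factor, had the highest such share of the 13 fibroblast genes, at 22.1%. In bulk libraries, fewer cells of a type and less RNA per cell cannot be told apart.

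SOX3 (chromosome X, 131290256 to 131292430, minus strand) stayed below the filter, with a highest value of 0.934. The fibroblasts had 0.0678, 0 and 0. ESC3 was at 0.666, 0.934 and 0.597, ESC7 at 0.384, 0.612 and 0.579, and ESC11 at 0.409, 0.459 and 0.461. All ESC libraries were above all fibroblast libraries, by a mean of 0.544 FPKM. An exact two-sided permutation test over libraries gave p = 0.0045, the smallest that 9 against 3 can give (adjusted p = 0.018 over 8 such tests of SOX3 and FGF5). The 9 ESC libraries come from 3 lines, so this p treats libraries of 1 line as independent. Its family relative SOX2 had 211 ± 11.8 (SD, n = 9) in ESCs, so SOX3 was a minor transcript beside it.

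FGF5 (chromosome 8, 146680745 to 146701987, minus strand) was not detectable in most ESC libraries. It was listed at 0 in 7 of the 9, with 0.0934 in ESC3 library 2 and 0.0571 in ESC11 library 2. In fibroblasts it was at 0.364, 0.324 and 0.308, above every ESC library but still under the filter. The exact two-sided permutation test gave p = 0.0045 for the difference of -0.315 FPKM (adjusted p = 0.018 over 8 tests). The FGF5 locus lies within the span of PRDM8, a gene on the opposite strand (146659356 to 146839901). PRDM8 was at 3.16 in fibroblasts and at 0.0767, 0.0779 and 0.0178 in ESC3, ESC7 and ESC11, and fell by 1.97 ± 0.05 on the log2(FPKM + 1) scale (SE, limma adjusted p = 4.45e-11). It passed the filter through fibroblasts alone. Whether the counting used strand is not given in the sources used here, so reads of FGF5 and of PRDM8 may not be separable in fibroblasts.

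**Figure D1:**
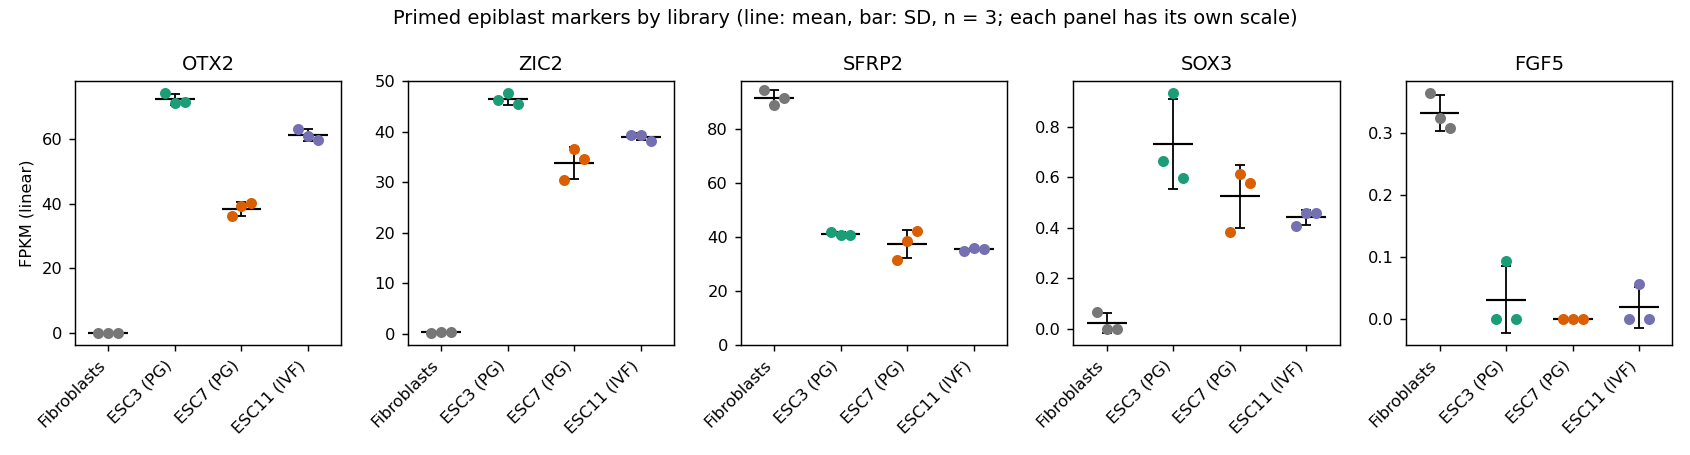
Levels of the 5 markers in each library, as FPKM on a linear axis with a scale of its own in every panel. Points are libraries, horizontal lines are group means and bars are SD (n = 3); OTX2, ZIC2 and SOX3 are higher in every ESC library than in any fibroblast library, SFRP2 and FGF5 are lower, and ESC7 is the lowest ESC line for OTX2 and ZIC2.

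Each line was also compared with the fibroblasts, which the 3 comparisons share. OTX2, ZIC2 and SFRP2 were called in every one. The share of tested loci called was 44.1% in ESC3, 43.4% in ESC7 and 42.9% in ESC11. OTX2 was higher by 6.19 ± 0.04 in ESC3, 5.30 ± 0.04 in ESC7 and 5.96 ± 0.04 in ESC11 on the log2(FPKM + 1) scale (SE; limma adjusted p at most 1.81e-14). ZIC2 was higher by 5.25 ± 0.08, 4.80 ± 0.08 and 5.00 ± 0.08 (adjusted p at most 2.29e-12), and SFRP2 was lower, at -1.14 ± 0.08, -1.28 ± 0.08 and -1.34 ± 0.08 (adjusted p at most 2.17e-07). For SFRP2 in ESC11, scaling libraries to the same sum gave -0.52 (adjusted p = 0.169) and ended the call.

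The second question is whether the ESC lines differ from each other. None of the 3 tested markers passed both criteria of a call in any comparison of lines. The loci called were 3.38% for ESC7 against ESC3, 2.94% for ESC7 against ESC11, 2.48% for ESC3 against ESC11 and 2.2% for the mean of the parthenogenetic lines against ESC11. At an adjusted p under 0.05 alone, with no fold minimum, OTX2 differed in all of these comparisons and ZIC2 in 1 of them. For OTX2 the parthenogenetic mean differed from ESC11 by -0.21 ± 0.04 (SE, limma adjusted p = 0.00334). As deposited, ESC3 was above ESC11 and ESC7 below it, so the parthenogenetic lines did not share this direction. At an unadjusted limma p under 0.05, 2 of the 3 markers differed for ESC7 against ESC3, 2 for ESC7 against ESC11, 3 for ESC3 against ESC11 and 1 for the parthenogenetic mean. Over all tested loci that threshold was reached by 47.6%, 41.3%, 35.2% and 32.8% in the same order.

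OTX2 was lowest in ESC7. Its mean FPKM was 72.2 ± 1.72 in ESC3, 61.2 ± 1.73 in ESC11 and 38.4 ± 2.14 in ESC7 (SD, n = 3 each), so ESC3 had 1.88 times the level of ESC7. The difference of ESC7 from ESC3 was -0.89 ± 0.04 (limma adjusted p = 2.41e-07) and that from ESC11 was -0.66 ± 0.04 (adjusted p = 2.88e-06). With libraries scaled to the same sum, the difference from ESC3 was -0.60 and no longer passed (adjusted p = 0.299). Relative to the median of all loci it was -0.92 as deposited and -0.86 with that scaling. ESC3 was above ESC11 by 0.24 ± 0.04 (adjusted p = 0.00364), which turned to -1.09 with libraries scaled to the same sum. That scaling moved the median of all loci to -1.16 in this comparison, and relative to the median OTX2 was at 0.22 as deposited and at 0.07 with it. Neighbours in the order of levels, ESC3, ESC11, ESC7 and fibroblasts, were apart by more than the spread of their libraries.

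ZIC2 had the same order of groups with smaller steps. Its means were 46.5 ± 1.13 in ESC3, 39.0 ± 0.686 in ESC11 and 33.9 ± 3.15 in ESC7 (SD, n = 3 each). The difference of ESC7 from ESC3 was -0.45 ± 0.08 (limma adjusted p = 0.00153). It did not pass with a pseudocount of 0.1 (-0.46, adjusted p = 0.157) or with libraries scaled to the same sum (-0.15, adjusted p = 0.826). The differences of ESC11 from its neighbours did not pass (adjusted p = 0.0521 against ESC3 and 0.085 against ESC7). They passed in 10 and 3 of 25 alternatives (adjusted p over the alternatives 0.00264 to 0.507 and 0.00481 to 0.558). The lowest adjusted p in each came from scaling libraries to the same sum. That setting put ESC3 below ESC11 (-1.07), the reverse of the deposited direction, and ESC7 below ESC11 (-1.22). In the other alternatives that passed against ESC3, ESC3 was above ESC11 by 0.23 to 0.25. No difference was detected between the parthenogenetic mean and ESC11 (0.02 ± 0.07, adjusted p = 0.864). An adjusted p under 0.05 alone was common between lines. It was reached by 39.9% of tested loci for ESC7 against ESC3, with 17.1% lower in ESC7, by 30.9% for ESC7 against ESC11, by 23% for ESC3 against ESC11, and by 19.7% for the parthenogenetic mean against ESC11.

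SFRP2 passed in no comparison of lines with all 12 libraries as deposited, and this depended on the ESC7 libraries. In ESC3 against ESC11 they enter only through the shared estimate of the spread. That comparison passed when only the groups compared were fitted (0.21, limma adjusted p = 0.00972). Its means were 41.2 ± 0.726 in ESC3, 37.5 ± 5.31 in ESC7 and 35.5 ± 0.593 in ESC11 (SD, n = 3 each), and the log2 differences were -0.14 ± 0.08 for ESC7 against ESC3 (adjusted p = 0.196), 0.21 ± 0.08 for ESC3 against ESC11 (adjusted p = 0.096) and 0.07 ± 0.08 for ESC7 against ESC11 (adjusted p = 0.594). ESC7 library 1 was the lowest ESC7 library for OTX2, ZIC2, SFRP2 and SOX3. It also had the largest summed FPKM of the ESC7 libraries, 7654760 against 4962940 and 6030350; the part of this in the result was not tested. Without that library the difference of ESC7 from ESC3 was -0.85 for OTX2 (adjusted p = 8.51e-07) and -0.37 for ZIC2 (adjusted p = 0.00513). SFRP2 then passed for ESC3 against ESC11 (0.21, adjusted p = 0.00593), for ESC7 against ESC11 (0.18, adjusted p = 0.0182) and for the parthenogenetic mean (0.19, adjusted p = 0.0063), and was at -0.03 for ESC7 against ESC3. Without ESC7 library 3 it passed for ESC3 against ESC11 (adjusted p = 0.0398) and for ESC7 against ESC3 (-0.23, adjusted p = 0.0288).

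SOX3 averaged 0.732 ± 0.178 in ESC3, 0.525 ± 0.123 in ESC7 and 0.443 ± 0.0295 in ESC11 (SD, n = 3 each). The ranges of neighbouring lines overlapped, and those of ESC3 and ESC11 did not. With 3 libraries against 3 an exact permutation test cannot go below p = 0.1, which was the value for ESC3 against ESC11 (adjusted p = 0.267 over 8 tests). FGF5 showed no measurable order among the lines, since 7 of the 9 values were 0.

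**Figure D2:**
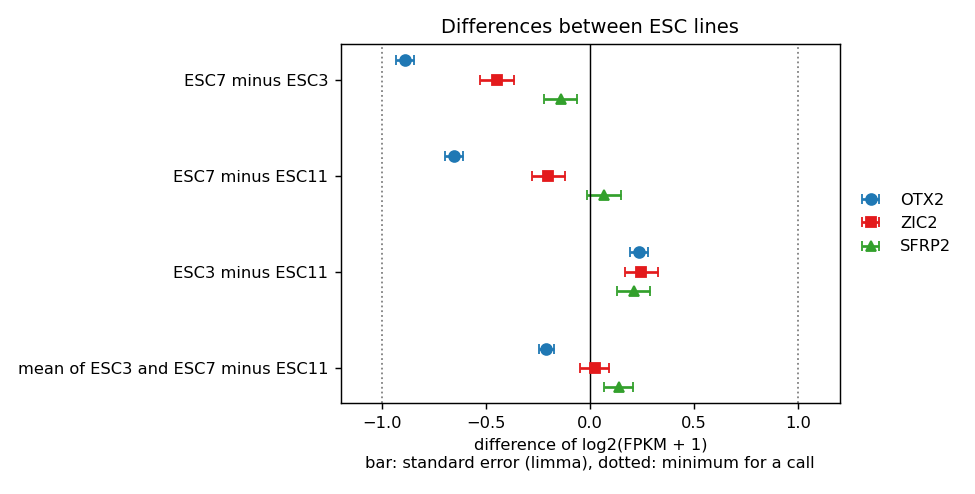
Differences of log2(FPKM + 1) between ESC lines for the 3 tested markers, with standard errors from limma and dotted lines at the minimum of 1 for a call. OTX2 in ESC7 is farthest from 0, at -0.89 against ESC3 and -0.66 against ESC11, and no point reaches the minimum.

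The family members of each marker show which paralogs accompany it. ZIC5 rose from 0.0745 to 25.4 ± 5.48 (SD, n = 9) in ESCs (log2 difference 4.60 ± 0.05, limma adjusted p = 7.48e-14). ZIC1, a gene of the neural tube and somites, fell from 3.53 ± 0.392 (SD, n = 3) and was listed at 0 in 8 of the 9 ESC libraries. ZIC4 was below the filter, ZIC5 passed it through ESC libraries alone and ZIC1 through fibroblasts alone. ZIC5 is the nearest named neighbour of ZIC2. It lies 8254 bp before it on the opposite strand, and the 2 genes point away from each other. ZIC5 was at 32.4, 20.6 and 23.2 in ESC3, ESC7 and ESC11, with ESC7 below ESC3 by -0.63 ± 0.06 (limma adjusted p = 3.59e-05).

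OTX1, the closest relative of OTX2, did not follow it. Fibroblasts had an FPKM of 1.39, 1.29 and 1.43. ESC3 had 0.129, 0.253 and 0.115, ESC7 had 1.87, 1.94 and 1.96, and ESC11 had 0.0865, 0.163 and 0.269. ESC7, the line with the least OTX2, was the only ESC line with OTX1 above 1. OTX1 was called higher in ESC7 than in ESC3 (1.33 ± 0.07, limma adjusted p = 3.93e-07) and than in ESC11 (1.32 ± 0.07, adjusted p = 5.1e-07). CRX, the photoreceptor member of the family, reached at most 0.357, and was listed at 0 in ESC7 and in the fibroblasts.

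SFRP1, a WNT antagonist like SFRP2, was abundant in all 4 groups and was not called. Its FPKM was 43.5 ± 1.31 in fibroblasts, 81.4 ± 2.23 in ESC3, 52.3 ± 6.07 in ESC7 and 65.2 ± 2.65 in ESC11 (SD, n = 3 each), with a difference of the ESC mean of 0.57 ± 0.06 on the log2(FPKM + 1) scale (limma adjusted p = 3.33e-06). The median of all loci in this comparison was 0.44. SFRP5 and FRZB were at 1.15 and 2.47 in ESCs and were not called. Of the SOX group B genes, SOX2 and SOX21 rose, SOX21 to 4.40 ± 1.45 (SD, n = 9), and SOX14 was below the filter. SOX2 and SOX21 passed it through ESC libraries alone.

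Among 20 other genes of the FGF family in the table, 9 were tested, 5 rose and 1 fell, beside 28.1% and 14.9% of all tested loci. The 5 passed the filter through ESC libraries alone, and the 1 that fell through fibroblast libraries alone. FGF19 reached 24.0 ± 4.09 and FGF4, a ligand of early embryonic cells, 4.44 ± 1.94 (SD, n = 9). FGF12 rose by 2.34 and FGF21 by 1.48 on the log2(FPKM + 1) scale. FGF7, a mesenchymal ligand, was at 493 ± 13.2 in fibroblasts (SD, n = 3) and listed at 0 in every ESC library. FGF2, the ligand supplied in the medium, was itself transcribed, at 91.9 ± 14.5 in ESC3, 184 ± 9.58 in ESC7 and 138 ± 39.5 in ESC11, with 189 ± 10.6 in fibroblasts (SD, n = 3 each). It was called higher in ESC7 than in ESC3 (1.01 ± 0.18, limma adjusted p = 0.00129). FGF8, a ligand of the gastrulating embryo, was at most 0.130 in any library. FGF5 was therefore one of 12 FGF family genes below the filter.

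**Figure D3:**
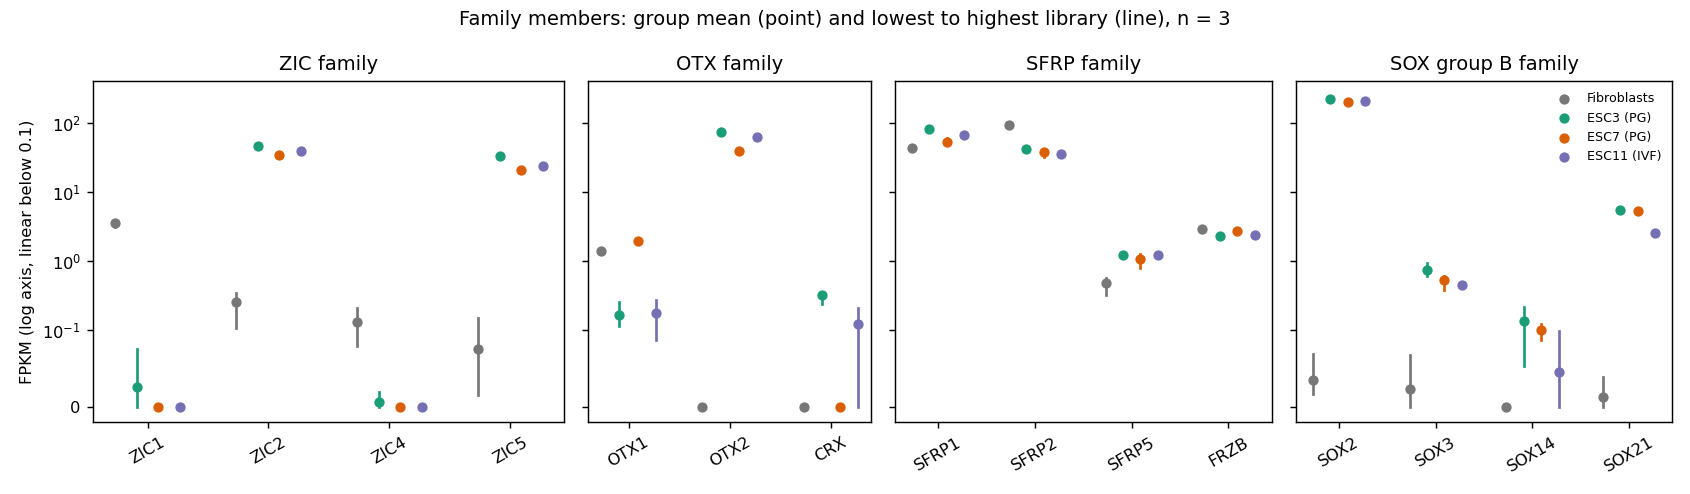
FPKM of genes of the ZIC, OTX, SFRP and SOX group B families in the 4 groups, on a log axis that is linear below 0.1. Points are means and lines run from the lowest to the highest of 3 libraries; ZIC2 and ZIC5 are high in ESCs while ZIC1 is highest in fibroblasts, and OTX1 is above 1 in ESC7 and fibroblasts alone.

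A wider list of primed epiblast genes gives the setting of the 5 markers. Of 19 tested genes, 16 rose and 1 fell in ESCs, beside 28.1% and 14.9% of all tested loci. The median log2 difference was 2.79 against 0.44 over all loci. DNMT3B, a de novo DNA methyltransferase, rose from 1.49 to 893 ± 71.9, LIN28B, an RNA-binding protein, from 0.461 to 64.5 ± 10.8, and TDGF1, a NODAL co-receptor, from 0.0142 to 24.4 ± 1.45 (SD, n = 9). The one that fell was CDH2, neural cadherin, from 525 ± 96.3 (SD, n = 3) to 46.2 ± 15.3 (SD, n = 9), and NODAL and the WNT receptor gene FZD7 were not called. POU3F1, a primed-state POU factor, was low, at 2.82 ± 1.18 in ESCs. LIN28B, TDGF1 and POU3F1 were among the genes of this list that passed the filter through ESC libraries alone.

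Of 9 tested naive-state genes, 7 rose and 2 fell, beside 28.1% and 14.9% of all tested loci, with a median of 1.61. Of those that rose, all but KLF5 passed the filter through ESC libraries alone. TBX3, which fell, passed it through fibroblasts alone. ZFP42 rose by 6.69, PRDM14 by 5.32, KLF5 by 2.51 and FGF4 by 2.37 on the log2(FPKM + 1) scale. KLF2, KLF17, TFCP2L1, ESRRB, NR0B1 and NR5A2 were below the filter. All 5 core pluripotency genes rose (median 7.68), and all passed the filter through ESC libraries alone. With a pseudocount of 5, 4 of the naive genes were called, 3 higher and 1 lower.

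**Figure D4:**
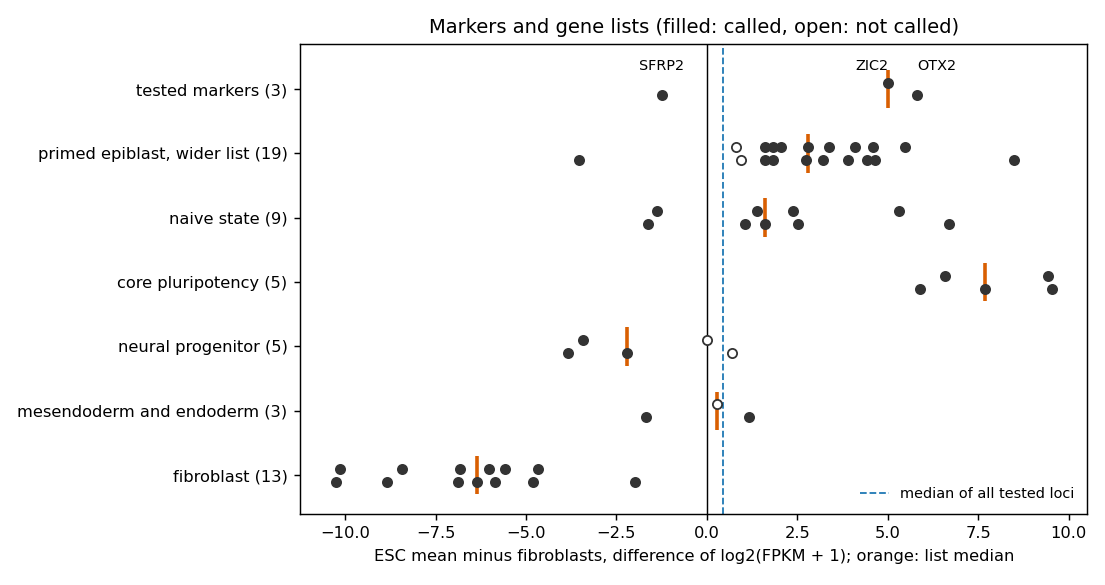
Difference of the ESC mean from fibroblasts for the 3 tested markers and for 6 gene lists, each point a gene, filled where called. Orange lines are list medians and the dashed line is the median of all tested loci, 0.44; OTX2 and ZIC2 lie to the right and SFRP2 to the left of it.

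OTX2, ZIC2 and SOX3 also mark neural progenitors, so other neural genes were read beside them. Of 10 neural progenitor genes in the table, 5 were tested. In the mean of the ESC lines 0 rose and 3 fell, beside 28.1% and 14.9% of all tested loci. At a limma adjusted p under 0.05 alone, MAP2 was higher. PAX6, the neuroectoderm regulator, was at 9.89 ± 0.634 in fibroblasts (SD, n = 3) and at most 0.0393 in an ESC library. It passed the filter through fibroblasts alone. NCAM1 fell by 3.83 and NES fell by 2.21 on the log2(FPKM + 1) scale. In ESCs, DCX, RAX, LHX2, NEUROD1 and POU3F2, all below the filter, reached at most 0.623, 0.537, 0.446, 0.200 and 0.0443. TUBB3, neuronal tubulin, differed between lines, at 245 ± 17.4 in ESC3, 44.7 ± 3.71 in ESC7 and 139 ± 5.15 in ESC11 (SD, n = 3 each), and was called lower in ESC7 than in ESC3 (-2.43 ± 0.07, adjusted p = 4.98e-09) and than in ESC11 (-1.62 ± 0.07, adjusted p = 1.05e-07). Against the fibroblasts, at 116 ± 5.33 (SD, n = 3), TUBB3 rose in ESC3 (1.07 ± 0.07, limma adjusted p = 9.27e-08) and fell in ESC7 (-1.36 ± 0.07, adjusted p = 1.32e-08). OTX2 and ZIC2 have the same order of lines as TUBB3; the part of neural cells in this was not tested. Of 10 mesendoderm and endoderm genes, 4 reached an FPKM of 1 in an ESC library (WNT3, MESP2, GATA6 and CER1, at most 2.66). In the ESC mean WNT3 rose by 1.18 and MESP2 fell by 1.69 on the log2(FPKM + 1) scale. WNT3 passed the filter through ESC libraries alone. GATA6, an endoderm regulator, was called higher in ESC7 than in ESC3 (1.08 ± 0.15, adjusted p = 0.000239). Of 4 tested trophectoderm genes, TFAP2C rose by 3.79, GATA2 fell by 2.42 and GATA3 fell by 1.48. TFAP2C passed the filter through ESC libraries alone, and GATA2 and GATA3 through fibroblasts alone.

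The order with ESC3 highest and ESC7 lowest, seen for OTX2 and ZIC2, was also found in 9 of the 19 wider primed genes, in 4 of 5 core pluripotency genes and in 4 of 9 naive genes. Over all tested loci it was found in 19.6%. For ESC7 against ESC3, 11 of the 19 wider primed genes had an adjusted p under 0.05 in the lower direction and 4 in the higher, beside 17.1% and 22.9% of all tested loci, and the median was -0.32 beside 0.02 over all loci. CDH2 was the one called, lower by -1.06 ± 0.24 (adjusted p = 0.00577). POU3F1 was at 4.29 ± 0.563 in ESC3, 1.80 ± 0.292 in ESC7 and 2.37 ± 0.195 in ESC11 (SD, n = 3 each), NODAL at 1.31, 0.463 and 0.716, and SOX11 at 38.3, 22.7 and 27.3. NODAL, which is in the counts above, passed the filter only through its ESC3 libraries, where it is highest. In contrast DNMT3A, a de novo methyltransferase, was highest in ESC7 (58.2 ± 1.57 against 39.2 ± 1.34 in ESC3), and FGF4 was at 6.84 in ESC7 and 3.05 in ESC3.

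Across the 9 ESC libraries, OTX2 and ZIC2 had a Pearson correlation of 0.92 on the log2(FPKM + 1) scale, OTX2 and SFRP2 of 0.37, and ZIC2 and SOX3 of 0.69. The libraries form 3 lines, share their preparation and are not independent. After the mean of each line was removed, the values were 0.74, 0.83 and 0.76. The other pairs of these markers were then at 0.78 (ZIC2 and SFRP2), 0.55 (SFRP2 and SOX3) and 0.31 (OTX2 and SOX3). Pairs with FGF5, not detectable in most ESC libraries, ranged from -0.22 to 0.67. Pairs of the markers with ZIC5 ranged from -0.41 to 0.52, and ZIC2 and ZIC5 went from 0.92 to 0.23. Among the 9500 named Ensembl loci whose mean over the ESC libraries reached 5, the genes most like OTX2 were RNMTL1 (r = 0.999), DDX3X (r = 0.996) and HNRNPF (r = 0.995). Those most like ZIC2 were PPP1R10 (r = 0.988), GTF3C4 (r = 0.977) and UNG (r = 0.975), and those most like SFRP2 were LETM1 (r = 0.975), ANKHD1 (r = 0.971) and GSE1 (r = 0.97). These are the highest of many values over 9 libraries. RNMTL1, for example, was at 10.4, 6.58 and 9.17 in ESC3, ESC7 and ESC11, and at 3.97 in fibroblasts.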

How the data were processed

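Polyadenylated RNA of 12 libraries was read as 100 bp paired ends, per the labels' protocols. The authors deposited FPKM values per locus and library; the tools and build listed in the submitters' processing notes, with no roles, are STAR 2.4.0b, Cufflinks 2.1.1 and Sscrofa10.2. Strand use and bias correction are not given in the sources used here. Low values shared a most frequent ratio between libraries in 1.25% to 15.6% of loci per pair, which was too few to recover whole reads. Nothing states that libraries of a group are separate cultures, so p-values measure only how libraries vary, and that variation may be technical.

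Each symbol was taken on its Ensembl locus with the highest mean, or on another locus where it had no Ensembl locus. NODAL, CER1 and KLF2 were among the latter. log2(FPKM + 1) was fitted with limma 3.58.1 (trended variances) in R 4.3.3 over all 12 libraries as 4 group means, two-sided, with the filter and call criteria given with the results, and the fit was tested on simulated data. Exact permutation tests, tables and plots used Python 3.11.15. All 5 markers are named; from 12 lists (117 genes, 105 in the table) the rule names up to 4 called genes each for the ESC and fibroblast comparison and between lines, plus family members, neighbours within 100 kb and the 3 most correlated loci. Other list genes that are named, such as CDH2, NODAL, SOX11 and DCN, were chosen after their values were seen. 1 list gene is not reported by name here, and some called fibroblast genes within the rule are not given. Members, lists and tests were chosen with earlier results of these data known. The pseudocount, filter, scaling, variance model, libraries fitted, replicate term, locus choice and each library were varied.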

Additional observations from a re-analysis of the deposited data

Results flagged for a closer look

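Differences of OTX2 and ZIC2 from fibroblasts were not equal in the 3 ESC lines, by the test of the difference between lines itself (limma, adjusted p under 0.05). For OTX2 the log2 difference was -0.89 for ESC7 against ESC3 (adjusted p = 2.41e-07), -0.66 for ESC7 against ESC11 (adjusted p = 2.88e-06) and 0.24 for ESC3 against ESC11 (adjusted p = 0.00364). For ZIC2 it was -0.45 for ESC7 against ESC3 (adjusted p = 0.00153). With libraries scaled to the same sum, ESC7 against ESC3 was -0.60 for OTX2 (adjusted p = 0.299) and -0.15 for ZIC2 (adjusted p = 0.826), and OTX2 in ESC3 against ESC11 turned to -1.09. All are under the log2 minimum of 1 as deposited, and in each of the 3 libraries of ESC7 both genes were below every library of the other lines. ESC7 had the lowest mean of the 3 lines in 30.9% of tested loci, and the share with such separate libraries was not counted. An adjusted p under 0.05 was reached by 39.9% of tested loci for ESC7 against ESC3, 30.9% for ESC7 against ESC11 and 23% for ESC3 against ESC11.

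A pair of unannotated loci without a strand lies inside the span of OTX2 and was used in no comparison above. The first (chromosome 1, 206647649 to 206648304) was listed at 0 in fibroblasts and at 3.03 ± 0.229 in ESC3, 1.77 ± 0.382 in ESC7 and 3.27 ± 0.696 in ESC11 (SD, n = 3 each), a log2 difference of the ESC mean of 1.85 (limma adjusted p = 1.65e-08). The second (206648398 to 206649484) was listed at 0 in fibroblasts and at 3.36 ± 0.116, 1.12 ± 0.322 and 3.34 ± 0.466, a log2 difference of 1.77 (adjusted p = 1.06e-08). The second was lower in ESC7 than in ESC3 by -1.05 ± 0.11 (adjusted p = 5.03e-05) and than in ESC11 by -1.04 ± 0.11 (adjusted p = 8.82e-05), past the minimum for a call that OTX2 itself did not reach.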

How the results depend on the processing

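In the 4 comparisons with fibroblasts, the direction and call of OTX2, ZIC2 and SFRP2 held under all 25 alternatives, except for SFRP2 in ESC11 with libraries scaled to the same sum (-0.52). Between lines, that scaling called 3 markers lower in the parthenogenetic mean, 3 lower in ESC3 and 2 lower in ESC7, each against ESC11. It moved the median of all loci to -1.03, -1.16 and -0.86 there and to 0.27 for ESC7 against ESC3. It reversed ZIC2 (-1.15) and SFRP2 (-1.03) in the parthenogenetic mean, OTX2 (-1.09), ZIC2 (-1.07) and SFRP2 (-1.11) in ESC3, SFRP2 (-0.96) in ESC7 against ESC11 and SFRP2 (0.15) in ESC7 against ESC3, where OTX2 (-0.60) and ZIC2 (-0.15) no longer reached an adjusted p under 0.05. ZIC2 in the parthenogenetic mean, at 0.02, was -0.0131 with quantile normalization, -0.0197 with median-ratio scaling and -0.0051 (without ESC7 library 2) to 0.0591 when single libraries were left out. SFRP2 in ESC7 against ESC11 was -0.023 (without ESC7 library 3) to 0.177 when single libraries were left out. Without the fold minimum, 1 marker was called in the parthenogenetic mean, 2 in ESC7 against ESC3, and 1 in each line against ESC11. The cause was not tested beyond the construction of each setting.

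The number of loci called depended on the settings. With fibroblasts, 7874 (ESC mean), 8062 (ESC3), 7941 (ESC7) and 7847 (ESC11) became 4554, 4714, 4494 and 4521 with a pseudocount of 5, and 16029, 15517, 15518 and 15432 without the fold minimum; ESC11 had 12075 with scaling to the same sum. For the parthenogenetic mean, ESC7 against ESC3, ESC3 against ESC11 and ESC7 against ESC11, counts of 402, 618, 454 and 537 became 673, 1148, 747 and 904 with a pseudocount of 0.1, 225, 219, 264 and 248 with 5, 3592, 7302, 4210 and 5647 without the fold minimum, and 129, 320, 163 and 205 on Ensembl loci alone. Scaling to the same sum gave 10092, 12577 and 6179 against ESC11, and a filter of FPKM 5 gave 387 for ESC7 against ESC3.

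The labels number the libraries 1 to 3 in every group. Same-numbered libraries did not deviate together (r = -0.09 to 0.0867 over 18 pairs), and libraries with other numbers ranged from -0.16 to 0.179. These values gave no sign of pairing, but they cannot exclude that same-numbered libraries were prepared together. With a replicate block 3 markers were called in ESCs against fibroblasts, 0 between lines, and 7880 loci in ESCs against fibroblasts. FGF5 and SOX3 were fitted with no filter on low values, where the ESC difference was -0.39 and 0.61. Both are low, and depth is unknown.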
